A study of Mus musculus with 9 samples.

Results

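Of the 6894 places in the C57BL/6J genome where wild-type spermatocytes carried an interval marked by both H3K4me3 and H3K36me3, 478 (6.93%) had kept an H3K4me3 interval, but no double-marked interval, in both of 2 Prdm9 mutants. They were chosen by overlap between the peak lists that the study's authors deposited: a wild-type double-marked interval had to share at least 1 bp with an EP and with an EK H3K4me3 interval, and with no double-marked interval of either mutant. The presence of each mark in each mutant was therefore used to choose the sites and is given as a description, whereas widths, borders and genomic positions were not part of the choice. H3K4me3 and H3K36me3 are histone H3 trimethylated at lysine 4 and at lysine 36, mapped by chromatin immunoprecipitation with sequencing. The libraries came from mouse spermatocytes at 14 days post-partum, with 2 H3K4me3 libraries and 1 H3K36me3 library per genotype, 9 in all. The wild type was C57BL/6J (PRDM9-WT). The EP mice were homozygous for C57BL/6J-Prdm9<em2Kpgn>/Kpgn, in which glutamate 360 of PRDM9 is a proline (PRDM9-EP/EP), and the EK mice for C57BL/6J-Prdm9<em3Kpgn>/Kpgn, in which it is a lysine (PRDM9-EK/EK). The labels describe both alleles as severe losses of catalytic activity rather than as null alleles, and each allele is represented by 1 line. Peak positions cannot show whether the cells were spermatocytes, so that label was not checked.

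PRDM9 is a methyltransferase made in early meiotic prophase that binds DNA through a long zinc finger array and places both marks on the nucleosomes around its binding site. Those double-marked nucleosomes mark the hot spots at which meiotic DNA breaks are made. H3K4me3 alone is also typical of active promoters, and H3K36me3 alone of transcribed gene bodies, where another enzyme, SETD2, places it, so the coincidence of the marks outside transcribed genes is a hallmark of PRDM9.

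The lists hold positions only. A promoter window of RefSeq lay wholly inside the wild-type double-marked interval at 6 of the 478 sites. The other 6416 double-marked intervals held 39 such windows. Of the 478, 11 lie on a chromosome with no window in the table used and could not be counted. A window covers 250 bases before to 50 bases after an annotated start of a gene, on the strand of the gene (build GRCm38.p6). A gene can have more than 1 such start: there were 32851 windows for 27025 genes. Of the 6, Spata13 (gene 219140, a guanine nucleotide exchange factor) and Gm31493 (102633740) are protein-coding, and the other 4 belong to long non-coding RNA genes. The nearest boundary of a protein-coding gene lay 31438 bp from the Spata13 site, so that window is at a start inside the gene's span. The 4 windows printed here show starts inside the kept H3K4me3 and starts in a flank outside the listed H3K4me3 intervals of both mutants. Of all 6 windows, 4 lay wholly inside the EP interval and 3 inside the EK interval, 1 lay partly inside the EK interval, and 2 lay outside both. The windows of Spata13 (chr14:60732654-60732953, plus strand) and Gm31493 (chr1:160025714-160026013, minus strand) lay wholly inside the H3K4me3 intervals of both mutants. Those of Gm30255 (chr17:31726668-31726967, plus strand) and 4933406D12Rik (chr2:146542681-146542980, plus strand) shared 0 bases with either. Capitals mark a match to GNTGCTNCT, part of the motif bound by the C57BL/6J form of PRDM9, searched on both strands.
Spata13: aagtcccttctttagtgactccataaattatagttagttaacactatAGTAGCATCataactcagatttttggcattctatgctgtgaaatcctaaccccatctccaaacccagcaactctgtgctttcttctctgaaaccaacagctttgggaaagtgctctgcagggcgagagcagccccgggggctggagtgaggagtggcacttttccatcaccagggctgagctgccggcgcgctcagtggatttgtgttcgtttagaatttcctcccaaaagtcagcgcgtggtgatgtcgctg
Gm31493: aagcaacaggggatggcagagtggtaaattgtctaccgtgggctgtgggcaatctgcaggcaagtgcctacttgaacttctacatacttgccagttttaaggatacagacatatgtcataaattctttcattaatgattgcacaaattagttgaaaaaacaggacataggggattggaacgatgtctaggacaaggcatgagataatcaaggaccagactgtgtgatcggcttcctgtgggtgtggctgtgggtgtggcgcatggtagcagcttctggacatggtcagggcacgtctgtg
Gm30255: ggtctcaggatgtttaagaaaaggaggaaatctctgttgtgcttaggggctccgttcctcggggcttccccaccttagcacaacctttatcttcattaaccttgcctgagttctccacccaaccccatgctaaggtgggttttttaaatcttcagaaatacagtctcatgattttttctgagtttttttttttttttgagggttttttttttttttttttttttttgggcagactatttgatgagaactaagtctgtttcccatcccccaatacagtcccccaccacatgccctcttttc
4933406D12Rik: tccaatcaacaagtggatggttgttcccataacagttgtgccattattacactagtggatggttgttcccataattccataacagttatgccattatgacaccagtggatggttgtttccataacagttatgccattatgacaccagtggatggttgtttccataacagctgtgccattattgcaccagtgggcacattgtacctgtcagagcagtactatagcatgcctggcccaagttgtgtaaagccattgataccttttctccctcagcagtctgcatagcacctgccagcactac

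At Spata13 the wild-type double-marked interval was 1106 bp (chr14:60732013-60733118), the EP H3K4me3 interval 785 bp (chr14:60732437-60733221) and the EK one 766 bp (chr14:60732456-60733221). Both mutant intervals ended on the right border of the wild-type H3K4me3 interval and were shorter on the left side only. At Gm31493 a wild-type width of 1993 bp stood against 980 bp (EP) and 763 bp (EK). The window of Gm30255 fell in a part of a 1933 bp wild-type interval outside the 1174 bp kept in EP and the 935 bp kept in EK. The window of 4933406D12Rik, a long non-coding RNA gene, likewise fell outside the 881 bp kept in EP and the 720 bp kept in EK of a 2100 bp interval. The 9 letters matched in 1 of the 6 windows inside these sites (16.7%), in 6 of the 39 whole windows inside other wild-type double-marked intervals (15.4%) and in 2377 of all 32851 windows (7.24%). Median GC content was 46.5% in the 6 windows, 46% in the 39 and 52.7% in all windows. The 6 windows are too few for a comparison with other double-marked sites.

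Most wild-type double-marked intervals had no H3K4me3 interval in either mutant (5418 of 6894, 78.6%). An EP H3K4me3 interval lay on 1414 (20.5%) and an EK one on 799 (11.6%), and a double-marked interval on 309 (4.48%) in EP and 158 (2.29%) in EK. H3K4me3 persisted in both mutants at 737 sites. Of these, 478 (64.9%, 95% Wilson interval 61.3 to 68.2) had no double-marked interval in either mutant and 119 had one in both. A further 106 were double-marked in EP only and 34 in EK only, so that 259 of the 737 kept both marks in at least 1 mutant. The neighbouring group of 593 sites had H3K4me3 alone in EP and no interval in EK. All intervals quoted for shares cover the sampling of sites only. There is 1 list per genotype and kind with no read counts, so depth is unknown, no value has an error between animals, and no test between genotypes was possible. An absent interval means only that none was listed. Both mutant H3K36me3 libraries were new while the wild-type one was earlier data, so genotype and library batch cannot be told apart. For H3K4me3, 1 EK library was new and 1 earlier, while those of EP and the wild type were all earlier data. Batch therefore cannot be told apart from genotype in comparisons of EK with EP or the wild type either.

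At the edge of the rule, the smallest overlaps that admitted a site were 10 bp with an EP interval and 57 bp with an EK interval, both at chr9:119662220-119662669. The nearest miss for EK was a site with H3K4me3 in EP at chr13:94978139-94978290, 16 bp from an EK interval, and for EP a site at chr10:57785371-57786006, 799 bp from an EP interval. The chosen site closest to a mutant double-marked interval lay 327 bp from one of EP and 312 bp from one of EK (chr1:99861780-99863233). The smallest double-marked overlaps that kept a site out were 40 bp in EP (chr4:4790458-4791078) and 72 bp in EK (chr7:120857896-120858236).

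Double-marked sites at both ends of the wild-type width range were in the set more often than those in its middle. When all 6894 double-marked intervals were divided by width into 10 bins of nearly equal number, 106 of 693 (15.3%, Wilson 12.8 to 18.2) of the narrowest bin, 108 to 892 bp wide, were in the set. The share was lowest, at 13 of 689 (1.89%, 1.11 to 3.20), in the fourth bin. It stood at 68 of 688 (9.88%, 7.87 to 12.3) in the ninth bin and 162 of 690 (23.5%, 20.5 to 26.8) in the widest, 2013 to 5015 bp wide. The narrowest bin thus held 22.2% of the 478 sites and the widest 33.9%. H3K4me3 itself followed a similar course: an EP interval lay on 28.0% of the narrowest bin, 4.90% of the third and 78.4% of the widest, and an EK interval on 27.6% of the narrowest, 3.32% of the fifth and 45.2% of the widest. Width and the detection of a peak are readouts of the same signal, so these shares describe the lists. The narrow end consists almost wholly of sites at which a mutant border is identical to a border of the wild-type H3K4me3 interval. No such border was present at 3 of the 106 sites in the narrowest bin and at 160 of the 162 in the widest. With only sites of that kind counted, the share was 0.433% in the narrowest bin, 9.01% in the ninth and 23.2% in the widest.

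**Figure D1:**
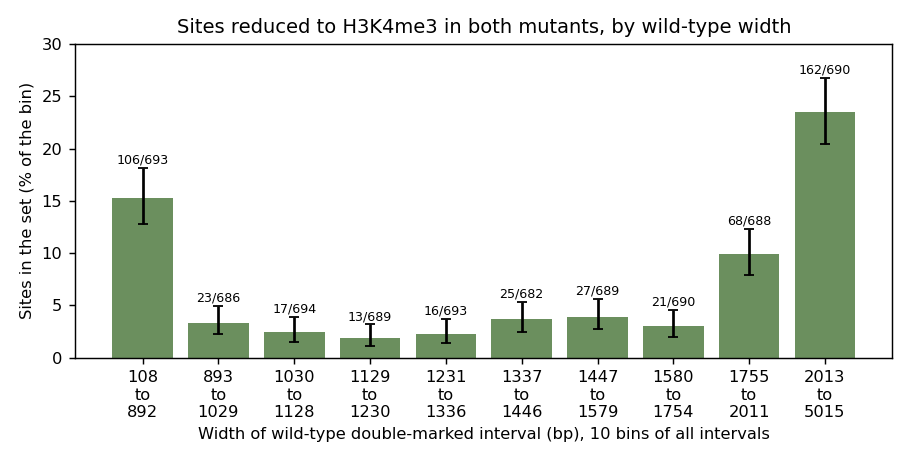
Share of wild-type double-marked sites (y, percent) in each of 10 bins of wild-type double-marked width (x, narrowest to widest), with 95% Wilson intervals. The share reduced to H3K4me3 in both mutants is 15.3% in the narrowest bin, 1.89% in the fourth and 23.5% in the widest; 3 of the 106 sites in the narrowest bin and 160 of the 162 in the widest have no mutant border identical to a wild-type one.

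In the wild type, the double-marked intervals of the 478 sites had a median width of 1669 bp (quartiles 995 to 2163, range 151 to 3740), against 1336 bp over all 6894. The H3K4me3 interval holding each had a median of 1928 bp, of which a median of 91.5% was double-marked (quartiles 81.0 to 98.9). The kept H3K4me3 intervals were narrower, with a median of 993 bp in EP (quartiles 611 to 1258, range 158 to 2055) and 816 bp in EK (quartiles 555 to 1088, range 136 to 2062). Site by site, the EP interval had a median of 0.582 and the EK interval 0.510 of the wild-type double-marked width, and 0.517 and 0.448 of the wild-type H3K4me3 width. The EP interval lay wholly inside the wild-type double-marked interval at 401 sites (83.9%) and the EK interval at 410 (85.8%), against 91.5% and 88.8% of the 259 sites that kept both marks in at least 1 mutant. The EP interval ended inside the wild-type double-marked border on both sides at 250 sites (52.3%), on 1 side at 200 and on neither at 28, and the EK interval on both at 253 (52.9%), on 1 at 196 and on neither at 29. The median EP border was 368 bp inside the left and 329 bp inside the right wild-type border, and the median EK border 444 bp and 412 bp. Where both marks survived in at least 1 mutant, the wild-type intervals were wider, with a median of 2198 bp, as were those of EP at 1266 bp and EK at 1076 bp, and the site-wise ratios to the wild-type double-marked width were 0.615 and 0.551. At the 593 sites with H3K4me3 in EP alone, the EP interval was narrower, with a median of 814 bp and a ratio of 0.453.

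At 186 of the 478 sites (38.9%), both mutant intervals had a border identical to the base to a border of the wild-type H3K4me3 interval, against 88 of the 259 sites that kept both marks in at least 1 mutant (34.0%). It was on the same side in both mutants at 185 of the 186. At 169 of the 186 that border was also a border of the wild-type double-marked interval. At 286 sites (59.8%, against 64.5% of the 259) no mutant border matched, and the remaining 6 matched in 1 mutant. The sites with a matching border were narrow, with a wild-type median of 837 bp (range 151 to 2079), 509 bp in EP and 489 bp in EK. Those with no matching border measured 2096 bp (range 629 to 3740), 1187 bp and 988 bp in the same order. At the latter the EP borders lay a median of 487 bp and 429 bp inside the left and right wild-type borders, and the EK borders 567 bp and 536 bp, and both mutant intervals were shorter than the wild type on both sides at 245 of the 286 (85.7%). At the rest at least 1 mutant interval reached or passed a wild-type double-marked border. Another wild-type H3K4me3 interval lay within 10 kb of 56 of the 186 (30.1%) and of 45 of the 286 (15.7%). The deposited lists are limited to a fixed set of sites, and positions alone cannot show whether a border shared to the base is that of the peak or of the set, so the widths at the 186 sites are less certain than those at the 286.

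**Figure D2:**
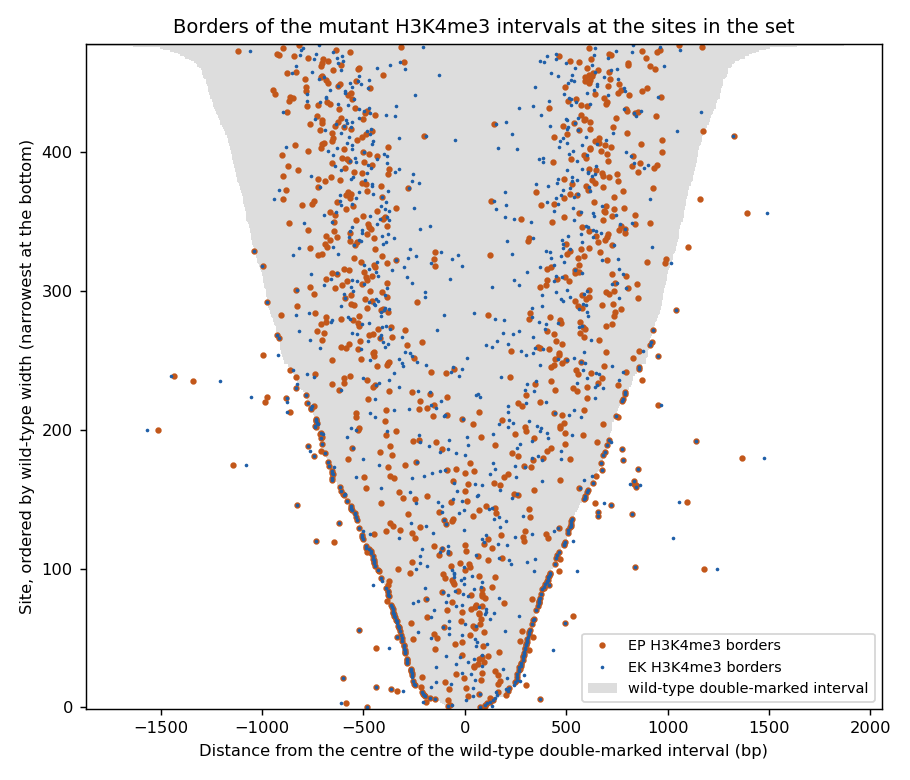
Position of the EP (orange) and EK (blue) H3K4me3 borders relative to the centre of the wild-type double-marked interval (x, bp) at the 478 sites, ordered by wild-type width (y); grey is the wild-type double-marked interval. At wide sites the borders of both mutants mostly lie inside the grey, and at narrow sites 1 border of each often coincides with its edge.

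Among the widest wild-type sites the kept interval was not always central. The site at chr8:30556089-30559364, outside any gene, measured 3276 bp in the wild type, with 1484 bp left in EP and 1167 bp in EK. It was off centre, with the EP borders 1322 bp and 470 bp, and the EK borders 1433 bp and 676 bp, inside the left and right wild-type borders. A site on the X chromosome, at chrX:102311101-102313930 in Hdac8 (70315), which encodes a histone deacetylase, measured 2830 bp, 1640 bp and 1182 bp in the same order. At 5 more of the widest sites, which were 2808 to 3008 bp wide in the wild type, EP kept 1509 to 1990 bp and EK 1436 to 1870 bp. Among these 5, the site at chr13:67765077-67768052 had EK wider than EP, at 1870 bp against 1601 bp. The gene table gives spans, so whether a site in a gene is exonic or intronic is not stated here.

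The narrowest site behaved differently. At chr4:82509479-82509629, in the span of the long non-coding RNA gene Gm11266, only 151 bp were double-marked in the wild type, and its H3K4me3 interval of 556 bp was listed with identical borders in the wild type, EP and EK. Such full identity of all 3 H3K4me3 intervals occurred at 8 of the 478 sites (1.67%), against 13 of the 259 that kept both marks in at least 1 mutant (5.02%). A site of 224 bp at chr10:8883813-8884036, in Sash1, a gene for a signalling scaffold protein, lay under H3K4me3 intervals of 696 bp in EP and 722 bp in EK. At 203 bp, the site at chr2:38061030-38061232 in Dennd1a, which encodes an activator of the Rab35 GTPase, had 172 bp in EP and 166 bp in EK.

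Between the mutants, the EP interval was wider than the EK interval at 350 sites (73.2%), against 71.2% of all 737 sites with H3K4me3 in both. The EK interval was wider at 118 (24.7%, against 24.6%), and 10 were equal. The EK interval lay inside the EP interval at 293 sites (61.3%, against 59.7%) and the reverse held at 96 (20.1%). The median difference, EP minus EK, was 106 bp both at the 478 sites (quartiles 0 to 236, range -709 to 775) and at the 737. The 737 include the 478; at the other 259, EP was wider at 67.6% and EK at 24.3%. The order of the mutants over all the sites was close to these shares and is not a result about them. The order varied with width and border in the other sites too. With the sites divided by wild-type width into 4 bands, EP was wider at 60 of 120 of the narrowest sites, at 78 of 119, at 101 of 119 and at 111 of 120 of the widest, and the median difference was 3 bp, 58 bp, 177 bp and 204 bp in the same order. At the other sites of the same widths with H3K4me3 in both mutants, EP was wider at 16 of 61, 18 of 27, 26 of 32 and 109 of 130. The shares differed most in the narrowest band, with 50% against 26.2%. Sites of equal width count as not wider in these shares. They were 21 of the 259 (8.11%), against 10 of the 478 (2.09%). In the narrowest band EK was wider at 52 of the 120 and 8 were equal. The median difference at the other sites of that band was 0 bp, so their lower share is not a count of sites with EK wider. Among the 478, EP was wider at 110 of the 186 sites with a matching border and at 239 of the 286 without (83.6%), against 38 of 88 and 134 of 167 (80.2%) of those other sites.

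**Figure D3:**
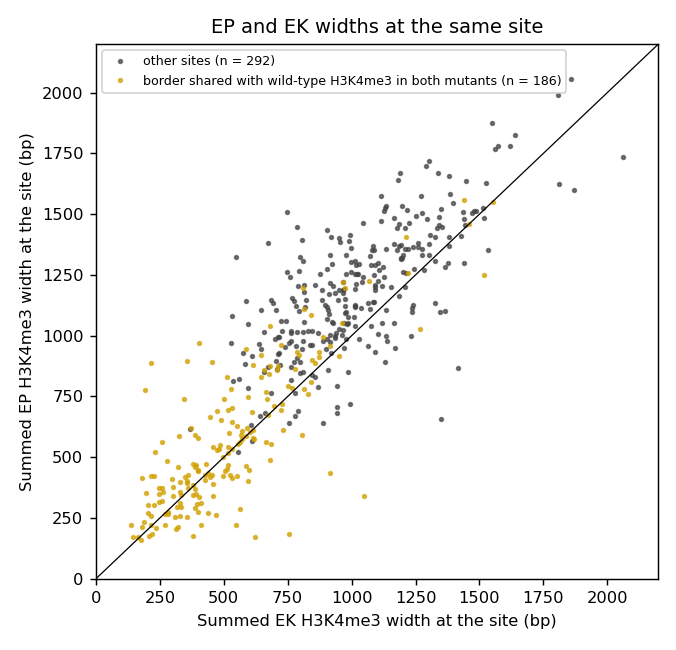
Width of the EP H3K4me3 interval (y, bp) against the width of the EK interval (x, bp) at the 478 sites, with the line of equal width; colours separate sites whose mutant intervals share a border with the wild-type H3K4me3 interval from the rest. EP was wider at 350 sites and EK at 118, and the points with a shared border lie at lower widths.

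The largest excess of EP over EK was at chr1:126654746-126656914 in Nckap5 (210356), where a wild-type width of 2169 bp stood against 1323 bp in EP and 548 bp in EK, a difference of 775 bp. At chr8:33305729-33308063 in Wrn (22427), the gene for a RecQ helicase that is mutated in Werner syndrome, EP kept 1507 bp and EK 748 bp of 2335 bp. At chr5:118084470-118086948 in Fbxw8 (231672), which encodes a substrate adaptor of a ubiquitin ligase, the values were 1380 bp and 673 bp of 2479 bp. The opposite order was most marked at chr10:58325173-58326640 in Lims1 (110829), an adaptor of integrin signalling, where EK kept 1049 bp and EP 340 bp of 1468 bp. At chrX:73346698-73347589 in Zfp275 (27081), a zinc finger gene, EK kept 754 bp and EP 185 bp of 892 bp. At chr15:88554994-88556003, outside protein-coding genes, the EK interval of 1349 bp exceeded the wild-type double-marked width of 1010 bp, though not the wild-type H3K4me3 width of 2772 bp, while the EP interval had 656 bp. The widest interval of EP was 2055 bp, at chrX:166535317-166537502 in Egfl6 (54156), which encodes a secreted protein of the extracellular matrix. There EK had 1858 bp, and the wild type had 2186 bp double-marked within an H3K4me3 interval of 3080 bp. The widest of EK was 2062 bp, at chr16:45682703-45685155 in Tmprss7 (208171), a membrane serine protease gene, where EP had 1734 bp and the wild type 2453 bp double-marked within 2919 bp of H3K4me3.

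The 478 sites lay in protein-coding genes less often than other double-marked sites did. The span of such a gene held 190 of them (39.7%, Wilson 35.5 to 44.2), against 49.5% of all 6894 sites. The share was 68.1% (81 of 119, 59.2 to 75.8) where both marks were kept in both mutants, and 64.5% (167 of 259, 58.5 to 70.1) where both were kept in at least 1. Put the other way, of the sites with H3K4me3 in both mutants, those in a protein-coding gene were in the set at 190 of 357 (53.2%, 48.0 to 58.3) and the others at 288 of 380 (75.8%, 71.2 to 79.8). Sites with H3K4me3 in EP alone were also below the background, at 43.7% (259 of 593, 39.7 to 47.7). With genes of any biotype the set had 238 sites (49.8%) against 58.0% of all.

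The difference from all other double-marked sites of the same width was largest among wide sites. That from sites that kept both marks in at least 1 mutant was largest in the narrowest of the 4 width bands. By the same width bands, 61 of 120 (50.8%, Wilson 42.0 to 59.6), 53 of 119 (44.5%, 35.9 to 53.5), 38 of 119 (31.9%, 24.2 to 40.8) and 38 of 120 (31.7%, 24.0 to 40.4) lay in a protein-coding gene, from narrowest to widest. Other double-marked sites of the same widths stood at 58.3%, 46.9%, 50.8% and 58.3%, of which the first and the second lie within the intervals of the 478 sites. Among sites of the same widths with H3K4me3 in both mutants and both marks in at least 1, the shares were 93.4% (57 of 61), 66.7% (18 of 27), 56.2% (18 of 32) and 52.3% (68 of 130). By border, 92 of the 286 sites with no matching border (32.2%) and 95 of the 186 with one (51.1%) lay in a gene.

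**Figure D4:**
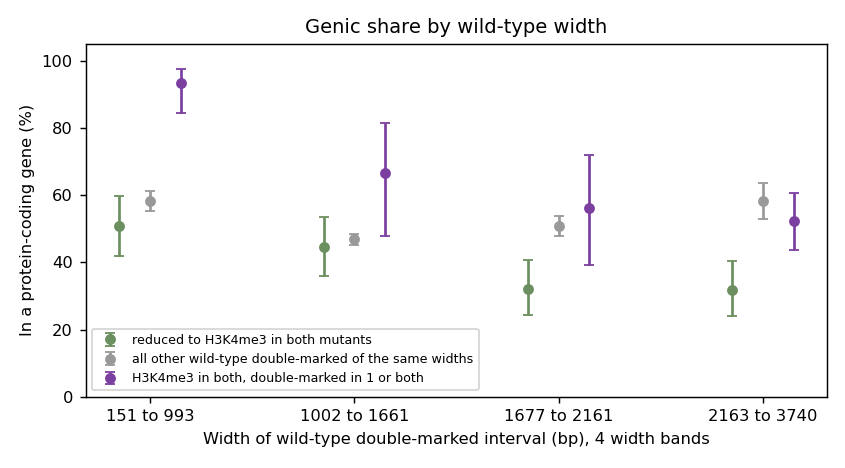
Share of sites in the span of a protein-coding gene (y, percent, with 95% Wilson intervals) by band of wild-type width (x) for the 478 sites, for sites of the same width that kept both marks in at least 1 mutant, and for all other double-marked sites of the same width. The 478 sites stand at 50.8% in the narrowest band and 31.7% in the widest, and their interval lies below that of all other sites in the widest 2 bands and holds the share of those sites in the narrowest 2.

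The start or end of a protein-coding gene lay within 1 kb of 25 sites (5.23%, Wilson 3.57 to 7.61), against 3.39% of all 6894. Without the members that share a border with the wild-type H3K4me3 interval, the share within 1 kb was 3.50%, close to that background. A boundary lay within 5 kb of 95 sites (19.9%, 16.5 to 23.7), against 13.8%. Sites double-marked in both mutants were higher still, with 15 of 119 (12.6%) within 1 kb and 42 (35.3%) within 5 kb. Across the width bands the share within 5 kb was 37 of 120 (30.8%, 23.3 to 39.6), 24 (20.2%, 13.9 to 28.3), 21 (17.6%, 11.8 to 25.5) and 13 (10.8%, 6.44 to 17.7), from narrowest to widest, against 19.0%, 12.7%, 10.4% and 14.2% of other sites of the same widths. The intervals of both groups overlap in the third and the widest band. The 190 sites in protein-coding genes lay in 180 different genes. No gene held more than 2, and 13 held 2, among them Nfib, a transcription factor gene, Maob, which encodes a monoamine oxidase, and Cdh11, which encodes a cadherin. Of 56 genes of meiotic recombination and synapsis found in the gene table, 0 held one of the 478 sites and 1, Tex11, held any wild-type double-marked site. Since 0.822% of all 21900 protein-coding genes held one of the 478, the 0 does not set this list apart.

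The X chromosome supplied more of these sites than its share. It held 33 of the 478 (6.90%, Wilson 4.96 to 9.54), against 3.25% of all 6894 sites. Among the 286 sites with no matching border the X share was 10.8%. Of its 224 double-marked sites 14.7% (10.7 to 20.0) were in the set, against 445 of 6668 autosomal ones (6.67%, 6.10 to 7.30), and single autosomes ranged from 3.77% on chromosome 19 to 8.71% on chromosome 8. The values that the rule used are given as a description. An EP H3K4me3 interval lay on 72 X sites (32.1%) against 20.1% of autosomal sites, and an EK one on 41 (18.3%) against 11.4%. Double marking stood at 4.02% on the X against 4.50% in EP, and at 1.79% against 2.31% in EK. Among sites with H3K4me3 in both mutants, 33 of 41 on the X (80.5%, 66.0 to 89.8) and 445 of 696 on autosomes (63.9%, 60.3 to 67.4) were in the set, and these intervals overlap. Sites with H3K4me3 in EP alone had an intermediate X share of 4.89% (29 of 593), and those with both marks in both mutants had 2.52% (3 of 119).

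Of the 186 sites with a matching border, 2 lay on the X. The X share of other double-marked sites with such a border is not given, so this count has no background. The 33 X sites had median widths of 1957 bp (wild type), 1281 bp (EP) and 1075 bp (EK), against 1646 bp, 977 bp and 810 bp for the autosomal sites. The upper quartile in the wild type was no higher on the X, at 2154 bp against 2163 bp, and the site-wise ratios to the wild-type double-marked width were 0.660 and 0.599 against 0.579 and 0.504. That difference depends on the denominator: against the wild-type H3K4me3 width, which had a median of 2401 bp on the X and 1864 bp on autosomes, the EP ratio was 0.516 on the X and 0.517 on autosomes, and the EK ratio 0.465 and 0.447. No mutant border matched a wild-type border at 31 of the 33, and over all 286 such sites the wild-type median was 2096 bp. Across the width bands 2 sites (1.67%, Wilson 0.458 to 5.87), 9 (7.56%, 4.03 to 13.8), 14 (11.8%, 7.14 to 18.8) and 8 (6.67%, 3.42 to 12.6) lay on the X, against 2.42%, 3.09%, 3.17% and 3.09% of other sites of the same widths. The intervals of both groups overlap in the narrowest and the widest band. EP was wider than EK at 27 of the 33 (81.8%), close to the 83.6% of all sites with no matching border. On the X, 14 of the 33 (42.4%) lay in a protein-coding gene, against 56.7% of all X double-marked sites. The former share rests on 33 sites and is given without an interval, so it is not read as a difference.

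**Figure D5:**
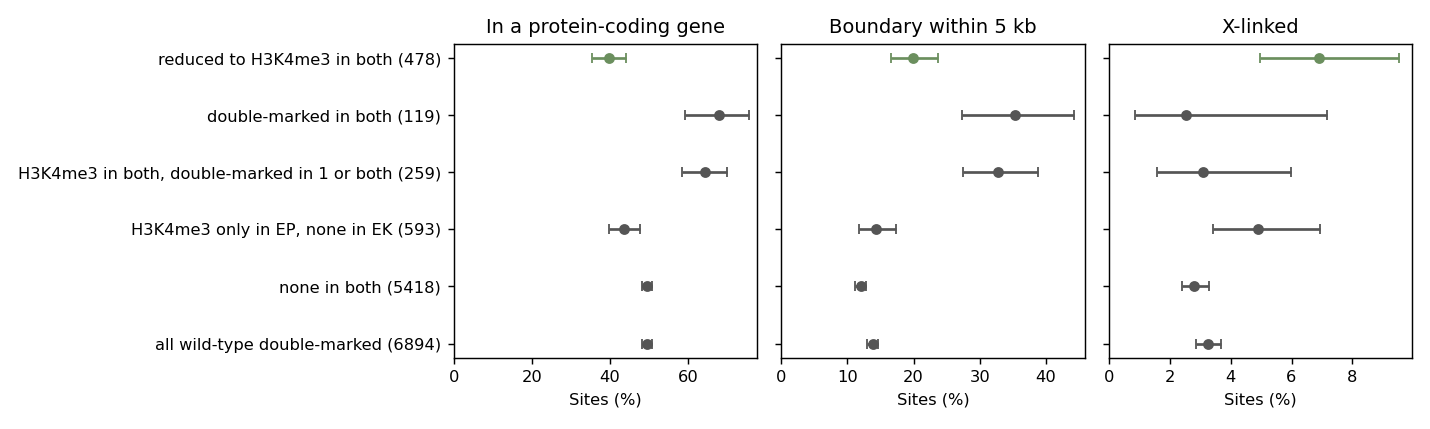
Share of sites (x, percent, with 95% Wilson intervals) in the span of a protein-coding gene, with a protein-coding gene boundary within 5 kb, and on the X chromosome, for the 478 sites and the other classes of wild-type double-marked sites (number of sites in brackets). The 478 sites have 39.7% in genes, below the 68.1% of sites double-marked in both mutants, and 6.90% on the X, above the 3.25% of all sites.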

How the data were processed

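Peak lists were compared for spermatocyte H3K4me3 and H3K36me3 libraries of 3 Prdm9 genotypes. Titles gave each library's group. The authors deposited 1 H3K4me3 and 1 double-marked list per genotype as chromosome, start and end on mm10, with no score, fold, p-value or read count. Per the deposited description, each list is limited to known PRDM9-dependent sites, the wild-type and EP H3K4me3 lists are reproduced from an earlier series, and EK H3K4me3 joins 1 new and 1 earlier library. The submitters' processing notes name Trimmomatic, BWA 0.7.9a and MACS 1.4, without roles; peak thresholds are not given in the sources used here.

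Lists were compared with pandas 2.3.3 in Python 3.11.15, with 1 bp as the least overlap and starts converted to 1-based. Where several mutant intervals met a site, widths were summed. Shares have 95% Wilson intervals (SciPy 1.17.1). No test was run. The code was tested on simulated lists. Genes came from a RefSeq table of build GRCm38.p6. Promoter windows were present for 79.9% of protein-coding genes, too few for distances to start sites, which are not given. Named sites were the 8 widest and 4 narrowest wild-type intervals, the 4 widest in each mutant, the 4 largest differences in each direction, and sites holding a promoter window; some of these are not reported here. The sites, gene lists and measures were chosen with earlier results of these data known. Alternatives covered overlap, merging, chromosomes, gene boundaries, biotype and shared borders.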

Additional observations from a re-analysis of the deposited data

How the results depend on the processing

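Under the alternatives of overlap, chromosomes, gene boundaries and merging, the number of sites ranged from 445 (autosomes only) to 478. Across all alternatives for the measures other than the shares by width bin, 50 of 64 recomputed values stayed within the interval of the reported value and 14 moved. The alternatives largely share their members, so this count is not a measure of stability. One of them, which allowed no mutant double-marked interval on the wild-type H3K4me3 interval, returned the same 478 sites and could move no value. For the number of sites, staying meant within 1.5 times. As geometric means, wild-type, EP and EK widths were 1404, 836 and 741 bp. A boundary within 5 kb in place of 1 kb gave 19.9%. Genes of any biotype gave 49.8% in a gene and 12.6% near a boundary, against 58.0% and 8.43% of all 6894 sites. With members that share a border with the wild-type H3K4me3 interval left out, an alternative chosen after the lists were seen, 286 sites stayed, with widths of 2096 bp, 1187 bp and 988 bp, EP wider at 83.6%, 10.8% on the X, 32.2% in a gene and 3.50% near a boundary. The cause of these shifts was not tested. With bins by H3K4me3 width, the share of sites in the set stayed within its interval in 8 of the 10 bins. The other 2, the ninth and the widest, moved to 7.25% and 27.9%.

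No paired analysis was possible because each genotype has 1 list of each kind; leaving out a replicate was impossible for the same reason. Depth per peak is unknown, so an unlisted mutant interval cannot be told from one below the authors' threshold.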

Other observations

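The median distance from one of the 478 sites to the next of them was 1594 kb. The next wild-type H3K4me3 interval was within 10 kb of 102 (21.3%), against 1136 of all 6894 double-marked sites (16.5%). The last 10 Mb of autosomes held 27 (5.65%), against 6.57% of all sites, and the first 10 Mb 12 (2.51%), against 4.06%.

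Of 11535 sites that carried H3K4me3 without double marking in the wild type, 1890 kept it in both mutants. These 1890 were narrower, with a median wild-type H3K4me3 width of 687 bp, against 1928 bp for the H3K4me3 intervals of the 478. Of them, 1160 (61.4%) lay in a protein-coding gene, against 39.7% of the 478 sites, and 57 (3.02%) on the X, against 6.90%. In the narrowest width band of the 478, the shares were 50.8% and 1.67%. That band had a median double-marked width of 661 bp and a median H3K4me3 width of 811 bp, so it is not matched in width to the 1890. Shares over all 11535 sites were not computed, so these values only describe the groups and set neither apart.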
